A study of Mus musculus with 14 samples.

Results

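The main genes of the major histocompatibility complex (MHC) class I pathway were examined in wounded mouse fibroblasts. The 10 genes were chosen by name from the pathway: the heavy chains H2-K1 and H2-D1, the light chain B2m, the peptide transporter genes Tap1 and Tap2, the transporter's partner Tapbp (tapasin), the inducible proteasome subunits Psmb8, Psmb9 and Psmb10, and the regulator Nlrc5. All 10 of 10 were found among the 43472 genes of both deposited tables. Primary fibroblasts came from the tail tips of C57BL/6 mice, and no gene was deleted or added in any group. The age and sex of the mice are not stated in the labels. The monolayer was scratched and left untreated or given AMG (autologous micrograft), a soluble extract of minced mouse skin freed of cells and diluted in growth medium. Replicate 1 gave 1 Untreated and 1 AMG-treated library at each of 1, 5, 12 and 24 h (8 libraries), and replicates 2, 3 and 4 gave 1 library of each group at 5 h only (6 libraries). The comparison asked which of the 10 transcripts differed between treated and untreated wounded cells.

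MHC class I molecules show short peptides from the inside of the cell to CD8+ T cells. The proteasome cuts cytosolic proteins into peptides, and its immunoproteasome form carries Psmb8, Psmb9 and Psmb10 in place of the constitutive catalytic subunits Psmb5, Psmb6 and Psmb7. Tap1 and Tap2 together pump the peptides into the endoplasmic reticulum, tapasin holds the empty class I molecule at the pump, and the loaded heavy chain leaves for the surface bound to beta-2-microglobulin, the product of B2m. Interferons and NF-kB are known inducers of the pathway, and Nlrc5 is its transactivator.

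Most of the 10 genes lie in the MHC on chromosome 17. In build mm10 with the GENCODE M21 annotation, H2-K1 spans chr17:33996017-34000347 on the minus strand and H2-D1 chr17:35262730-35267499 on the plus strand. Tapbp (chr17:33915899-33929292), Psmb9 (chr17:34181987-34187764, minus strand), Tap1 (chr17:34187553-34197225), Psmb8 (chr17:34197721-34201454) and Tap2 (chr17:34203527-34216321) lie between or beside them. B2m lies at chr2:122147686-122153083, Psmb10 at chr8:105935735-105938444 on the minus strand and Nlrc5 at chr8:94434356-94527272. Tap1 and Psmb9 run head to head and overlap by 212 bases, so reads there are uncertain because the strand setting of the counting is not known. Tapbp overlaps Zbtb22 on the same strand, a gene with a mean normalised count of 404 in untreated and 405 in treated libraries.

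The sequence just upstream of 2 members is shown because their levels were among the highest of the members and because they carried motif matches. The letters are from RefSeq on GRCm38.p6, 250 bases before the gene start, read 5′ to 3′ along the gene. Matched motifs are in capitals, and ATTGG is CCAAT on the other strand. H2-K1 is chr17:34000348-34000597 and B2m is chr2:122147437-122147686.

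H2-K1: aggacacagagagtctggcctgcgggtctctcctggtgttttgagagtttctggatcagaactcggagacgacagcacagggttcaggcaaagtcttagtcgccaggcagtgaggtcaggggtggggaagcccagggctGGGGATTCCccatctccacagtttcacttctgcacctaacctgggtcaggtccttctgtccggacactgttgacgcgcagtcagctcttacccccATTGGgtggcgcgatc

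B2m: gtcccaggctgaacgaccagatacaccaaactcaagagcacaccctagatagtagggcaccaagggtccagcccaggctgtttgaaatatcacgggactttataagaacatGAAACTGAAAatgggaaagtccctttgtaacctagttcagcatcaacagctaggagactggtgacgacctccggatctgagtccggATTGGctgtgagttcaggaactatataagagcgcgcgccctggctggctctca

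Around the motif, H2-K1 and H2-D1 share nearly every base, as 30 bases of each show, with the NF-kB type match in capitals (H2-K1 chr17:34000439-34000468 and H2-D1 chr17:35262913-35262942).

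H2-K1: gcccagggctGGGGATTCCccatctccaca

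H2-D1: gcccagggctGGGGATTCCccatctcctca

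The 250 bases before the RefSeq start of H2-D1 lie inside the gene span of GENCODE and are untranslated region there, so for H2-D1 they are upstream of the RefSeq start only. Over 177 aligned columns of the sequences before the 2 RefSeq starts, 161 were identical in H2-K1 and H2-D1 (91.0%). The motif GGGNNTTCC (NF-kB type, both strands) stood in the windows of H2-K1 and H2-D1 and in 5.82% of all 32851 RefSeq windows of 300 bases (250 before and 50 after a start). The interferon response element core (GAAA, any 2 bases, GAAA, both strands) stood in the window of B2m and in 3.44% of all windows, beginning 139 bases before the start. TTCNNNGAA (gamma-activated type) stood in Psmb8 and in 8.30% of all windows. CCAAT (both strands) stood in 6 of the 8 members with a window, and in 37.4% of all windows. The Tap1 and Psmb9 matches were the same bases, in the stretch that their windows share. A member counted if any of its windows matched. These matches describe letters only, and a missing match says nothing about a factor. Tap2 and Nlrc5 had no window.

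The libraries held 12545537 to 34696529 reads. Values are normalised counts, which the authors made by dividing read counts by a size factor, separately in the table of replicate 1 and the table of replicates 2 to 4. Normalised counts were therefore not compared between the tables. At 5 h, 9 of the 10 members had a mean of at least 10 over the 6 libraries and were tested. Psmb9, at 9.51, was not. Replicates 2 to 4 were compared with limma on log2(normalised count + 1), and genes were called at a Benjamini-Hochberg adjusted p under 0.05. Same-numbered libraries deviated together, so the value with the replicate number as a block is given where it changes the call.

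Per kilobase of exon, B2m stood highest in the 3 untreated libraries of replicates 2 to 4, with a mean normalised count of 4469 per kb (range 3769 to 5040). H2-D1 (602), Tapbp (358) and H2-K1 (325) followed with overlapping ranges. Psmb10 (128), Tap2 (97.8), Tap1 (44.6), Psmb8 (14.6), Psmb9 (2.25) and Nlrc5 (1.86) came below them. Only B2m over H2-D1 and H2-K1 over Psmb10 were separated from the next gene in the order. The class I chains and tapasin were thus the most abundant of the transcripts per length, and the inducible proteasome subunit Psmb9 and the regulator Nlrc5 the least.

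**Figure D1:**
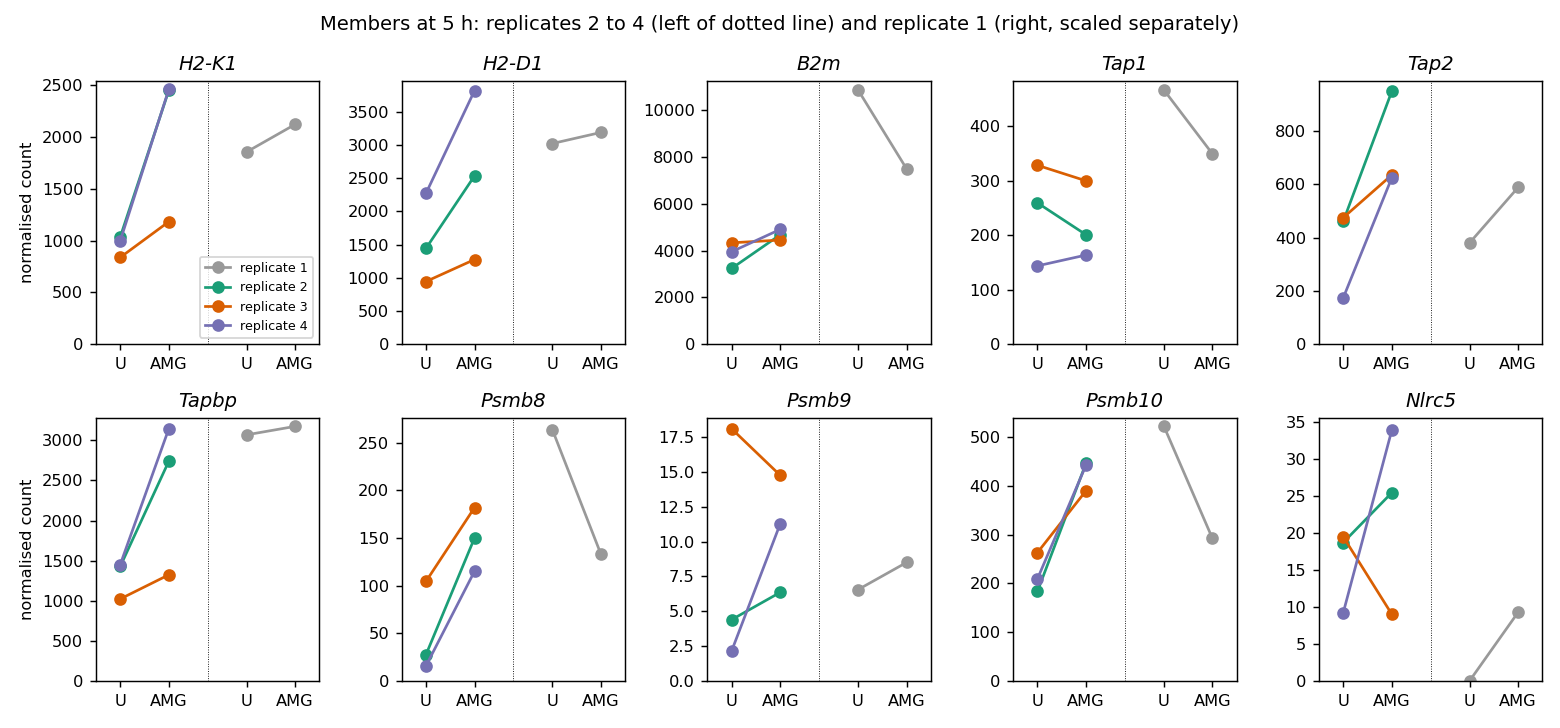
Normalised counts of the 10 genes at 5 h in each library (U, Untreated; AMG, AMG-treated; linear axes from 0). Lines join libraries of the same replicate number; replicates 2 to 4 are left of the dotted line and replicate 1, scaled in another table, is right of it. H2-K1, B2m, Tap2, Psmb8 and Psmb10 had no overlap between the groups of replicates 2 to 4.

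At 5 h the 2 heavy chains were higher with AMG in all 4 replicate pairs, except that H2-D1 in replicate 1 turned slightly negative with upper quartile rescaling. H2-K1, a classical class I heavy chain, had normalised counts of 1033, 837 and 997 in Untreated replicates 2, 3 and 4 and of 2448, 1181 and 2457 in the AMG-treated ones. The groups did not overlap, with replicate 3 lowest in both. Its log2 fold change was 1.01 (SE 0.29, n = 3 in each group) with an adjusted p of 0.121 (limma), and it rose with the replicate block (adjusted p 0.00134). H2-D1, the other classical heavy chain, had 1443, 944 and 2271 in untreated and 2536, 1276 and 3820 in treated libraries. These overlapped, since replicate 4 was high and replicate 3 low in both groups. The log2 fold change was 0.67 (SE 0.46) (limma adjusted p 0.411), and it rose with the block (0.00168). The light chain B2m had 3242, 4335 and 3954 against 4681, 4452 and 4909, without overlap but with a smaller log2 fold change of 0.29 (SE 0.14, limma adjusted p 0.260, 0.0544 with the block). With a correction for transcript length the B2m estimate turned to -0.12. It was 0.09 when edgeR took in replicate 1 as well, with a term for the table.

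The transporter subunits differed from one another. Tap2 had normalised counts of 461, 475 and 174 in untreated and 949, 635 and 625 in treated libraries. The treated libraries were all above the untreated ones, and Untreated replicate 4 was lowest. Its log2 fold change was 1.10 (SE 0.41; limma adjusted p 0.178, 0.00530 with the block). Tap1, the partner subunit, had 260, 329 and 144 in untreated and 201, 300 and 164 in treated libraries, and the groups overlapped. Its log2 fold change was -0.10 (SE 0.36; limma adjusted p 0.890, 0.643 with the block), and it was higher with AMG in 1 of 4 pairs. Tapbp had 1427, 1022 and 1450 against 2739, 1323 and 3144. Only replicate 3 lay within the range of the untreated libraries. The log2 fold change of Tapbp was 0.81 (SE 0.33; limma adjusted p 0.211, 0.00240 with the block). In the ratio of Tap2 to Tap1 within a library, chosen after the values were seen and so not tested, untreated libraries had 1.78, 1.44 and 1.21 and treated ones 4.72, 2.12 and 3.81. Replicate 1 at 5 h moved the same way, from 0.814 to 1.68.

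Psmb8 and Psmb10, which replace catalytic subunits in the immunoproteasome, were higher with AMG in every pair of replicates 2 to 4. Psmb8 had normalised counts of 27.5, 104 and 15.7 in untreated and 150, 182 and 115 in treated libraries. The groups did not overlap, though Untreated replicate 3 came close to the lowest treated library. Its log2 fold change was 2.00 (SE 0.65; limma adjusted p 0.148, 0.00314 with the block). It was 2.76 without Untreated replicate 3 and 1.02 when edgeR took in replicate 1 as well, with a term for the table. Psmb10 had 184, 263 and 209 in untreated and 447, 390 and 443 in treated libraries. These groups were clearly apart. The log2 fold change was 0.97 (SE 0.18; limma adjusted p 0.0606, 0.00234 with the block). It was 0.54 in the edgeR fit that took in replicate 1 (edgeR adjusted p 0.487). Psmb9, the remaining inducible subunit, had 4.40, 18.1 and 2.16 against 6.36, 14.8 and 11.3, near the floor of 3 reads in 1 library, which corresponds to 1.62 to 4.18 normalised counts. With all genes above 0 kept, its adjusted p in limma was 0.681, and 0.485 with the block. Nlrc5 had 18.7, 19.5 and 9.20 against 25.4, 9.02 and 33.9, with a log2 fold change of 0.39 (SE 0.61; limma adjusted p 0.736, 0.593 with the block).

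Against all genes, 0 of the 9 tested members passed without the block, where 0.97% of genes were called higher and 0.267% lower (limma). At an unadjusted p under 0.05 the number was 5 of 9, against 23.1% of all genes. With the block, 6 of 9 were called higher and 0 lower, against 17.9% and 19.3% of all genes. The 5 members without overlap between groups, all higher, compare with 15.1% of all genes higher. The median log2 fold change of the 9 members was 0.81 and that of all 13096 genes was -0.02. DESeq2 on the recovered reads called H2-K1 and Psmb10 higher, where it called 6.55% of all genes higher. By pair, the medians of the 9 members were 0.94 in replicate 2, 0.42 in replicate 3 and 1.12 in replicate 4. Without AMG-treated replicate 3, the treated library with the lowest H2-K1, H2-D1 and Tapbp, 3 members were called higher without the block (H2-K1, Tapbp and Psmb10), as were 8.75% of all genes.

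**Figure D2:**
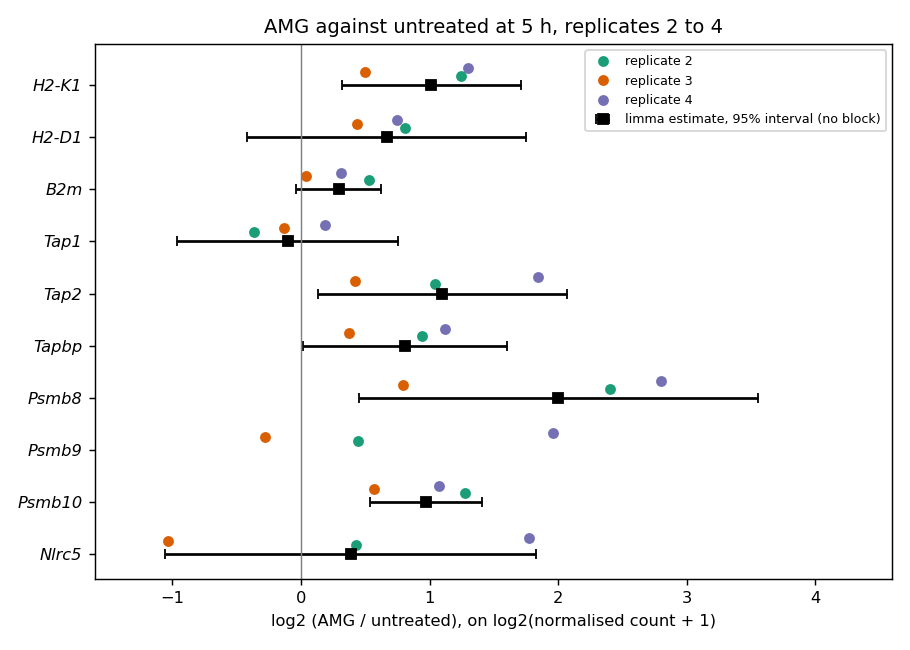
Log2 ratio of AMG-treated to Untreated libraries at 5 h for each gene, replicates 2 to 4. Black squares and bars are the limma estimate without the block and its 95% interval, coloured points the ratio of each replicate pair, and Psmb9 has no square because it was not tested. Psmb8 had the highest estimate (2.00) and Tap1 the lowest (-0.10).

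The percentages of inducible to constitutive subunit set a gene against its partner within 1 library, as a ratio of normalised counts that is not per length. Psmb8 was 1.49, 5.64 and 0.762% of Psmb5 in untreated libraries and 5.29, 8.05 and 3.38% in treated ones. The groups overlapped. The log2 difference was 1.46 (exact permutation test, two-sided, p = 0.3, adjusted over 3 ratios 0.45). By pair, the log2 ratio was higher with AMG in 3 of 3, by 0.51 to 2.07, where an exact paired permutation test gave p = 0.25, the smallest that 3 pairs allow. Psmb10 was 6.55, 9.91 and 7.91% of Psmb7 in untreated and 13.7, 14.1 and 12.6% in treated libraries. These did not overlap, and the log2 difference of 0.75 had the smallest p that 3 against 3 allows, 0.1 (exact permutation test, adjusted 0.3). Psmb9 against Psmb6 moved by 0.19 (exact permutation p = 0.9). Psmb5, Psmb6 and Psmb7 themselves had log2 fold changes of 0.55, 0.51 and 0.23, with limma adjusted p of 0.00448, 0.00753 and 0.0908 with the block. In replicate 1 at 5 h, Psmb8 went from 6.40 to 4.85% and Psmb10 from 10.1 to 9.31%.

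**Figure D3:**
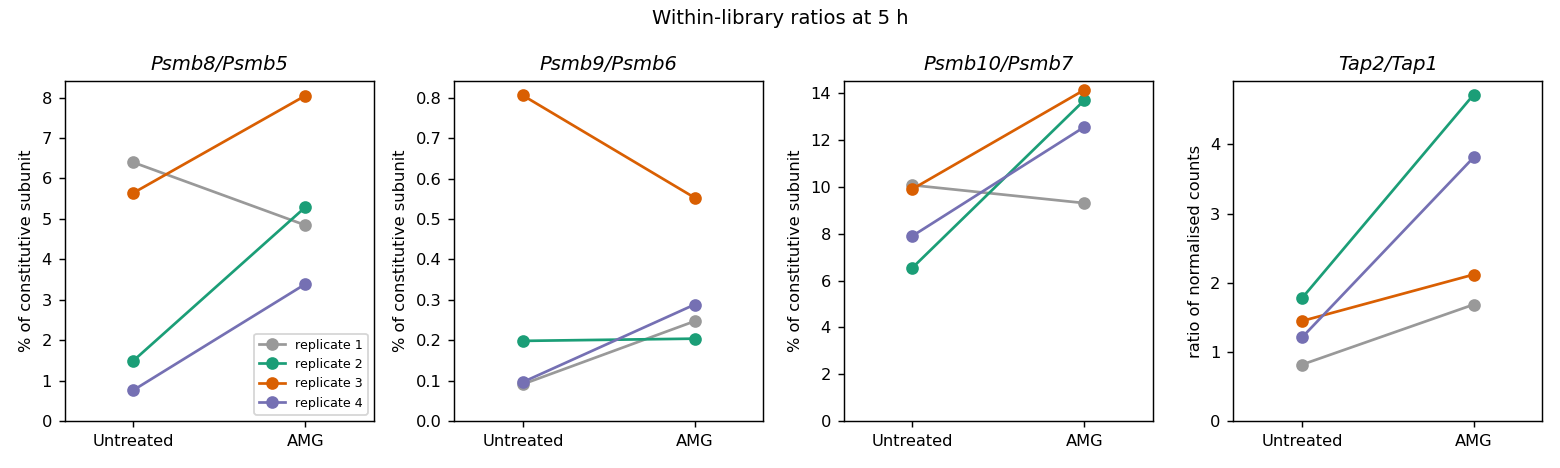
Ratios within each library at 5 h: inducible over constitutive proteasome subunit in percent, and Tap2 over Tap1. Lines join the libraries of the same replicate number; replicate 1 has its own table but ratios need no scaling between tables. Psmb10 over Psmb7 and Tap2 over Tap1 had no overlap between the groups of replicates 2 to 4.

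Replicate 1 followed the genes over time with 1 library per group, so its ratios have no replicate check, and intervals cover counting error only. At 5 h several genes went against the other replicates. B2m was at 10867 untreated and 7492 treated, Psmb8 at 264 and 133, and Psmb10 at 523 and 292. All these were lower with AMG, opposite to replicates 2 to 4. In Untreated 5 h replicate 1, 7.0% of the reads fell on ribosomal protein genes, against 2.27 to 5.10% in the other 13. At 1 h the share was 2.48% untreated and 5.10% treated. In replicates 2 to 4 it was 2.40, 2.82 and 2.27% untreated and 3.40, 3.15 and 3.47% treated, without overlap. A correction for transcript length turned the B2m log2 ratio at 5 h from -0.54 to 0.43 and at 1 h from 0.80 to -0.26. It moved Psmb10 at 5 h from -0.84 to -0.23 and Psmb8 from -0.98 to -0.84. In replicates 2 to 4, 6 members were called with the block under that correction. The part of library composition in the other ratios was not tested. H2-K1, H2-D1, Tap2 and Tapbp were higher in replicate 1 at 5 h, with log2 ratios of 0.19, 0.08, 0.63 and 0.05. Of these, H2-D1 and Tapbp had counting intervals that included 0, and with upper quartile rescaling they turned to -0.0060 and -0.035.

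H2-K1 was higher with AMG at all 4 times in replicate 1. Its normalised counts were 1660, 1854, 1393 and 1167 in untreated libraries at 1, 5, 12 and 24 h, and 2278, 2120, 1973 and 1909 in treated ones. Untreated H2-K1 was lowest at 24 h, where the log2 ratio was highest at 0.71 (95% interval 0.61 to 0.81). H2-D1 followed it, from 2475 to 3330 at 1 h, from 2147 to 2647 at 12 h and from 1953 to 2740 at 24 h. B2m was 6919 and 12038 at 1 h, 5840 and 6293 at 12 h, and 5188 and 6500 at 24 h. The 2 heavy chains were higher with AMG at every time, except that H2-D1 at 5 h turned with upper quartile rescaling.

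**Figure D4:**
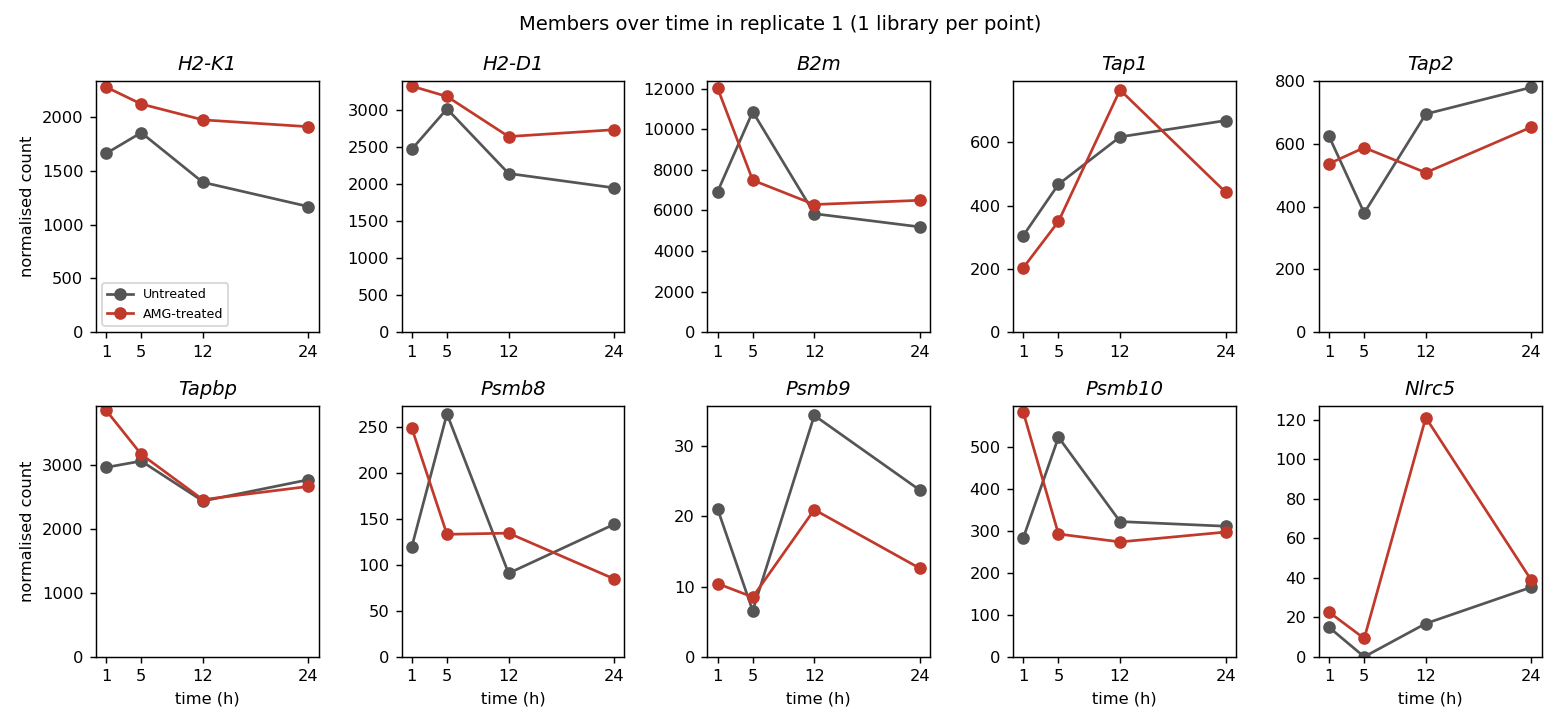
Normalised counts of the 10 genes over time in replicate 1 (grey, Untreated; red, AMG-treated; x axis in hours, linear axes from 0), with 1 library per point and no error bars. H2-K1 was higher with AMG at all 4 times, and Nlrc5 was at 16.8 and 121 at 12 h.

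The transporter genes did not follow the heavy chains. Tap1 was 305 and 203 at 1 h, 467 and 350 at 5 h, 617 and 765 at 12 h, and 669 and 442 at 24 h. Tap2 was 625 and 537 at 1 h, 696 and 509 at 12 h, and 781 and 654 at 24 h, lower with AMG at those 3 times and higher only at 5 h. Tapbp had log2 ratios of 0.38, 0.01 and -0.06 at 1, 12 and 24 h.

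Psmb8 and Psmb10 had their highest log2 ratios of replicate 1 at 1 h. Psmb8 was 119.5 untreated and 248.7 treated at 1 h, a log2 ratio of 1.05, and Psmb10 283 and 583, a log2 ratio of 1.04. These were the only 2 members past a log2 ratio of 1 at 1 h, against 11.3% of all genes higher and 10.7% lower. With the length correction their ratios at 1 h were 0.96 and 0.43, so neither was past 1. The 18 other proteasome genes were all positive at 1 h, with a median of 0.92, where 47.0% of all genes were positive. At 24 h Psmb8 was lower, 144 against 84.6. Psmb9 was lower in treated libraries at 1, 12 and 24 h (log2 ratios -0.95, -0.69 and -0.86), on 6 to 47 reads a library, and all 3 counting intervals included 0.

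Nlrc5, the transactivator of the pathway, was 16.8 untreated and 121 treated at 12 h, a ratio of 7.19 (95% counting interval 4.59 to 11.8). It was the only member past a log2 ratio of 1 at 12 h, where 5.93% of all genes were higher and 6.90% lower. At 5 h no read was found in the untreated library and 12 reads in the treated one. Set against a floor of 3 reads the ratio was 1.89, and the 95% counting interval began at 1.31. At 24 h Nlrc5 was 35.2 and 38.7. With no untreated read, whether it was past a log2 ratio of 1 at 5 h was set by the pseudocount (3.36 with 1 and 0.95 with 10), and no other member was past it, against 13.3% of all genes higher and 12.6% lower. At 24 h 0 members were past it, against 6.05% of all genes higher and 8.05% lower.

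The medians of the 10 log2 ratios in replicate 1 were 0.44, 0.06, 0.20 and -0.06 at 1, 5, 12 and 24 h, beside -0.06, -0.01, -0.01 and 0.02 over 13498 genes.

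Other genes of the pathway at 5 h were read from lists of related genes. With the block 17.9% of all genes were called higher and 19.3% lower. Without it 23.1% had an unadjusted p under 0.05 (limma). Of 10 tested other class I and class I-like heavy chains, 5 rose and 1 fell with the block, and H2-T22 alone was called without it. H2-T22, a class Ib heavy chain, was at 637 ± 50 in untreated and 1355 ± 236 in treated libraries (SD, n = 3), with a log2 fold change of 1.08 (limma adjusted p 0.0402). H2-T10, its near-identical copy, was at 4.86 ± 1.89 and 41.4 ± 16.4, and reads between the pair are uncertain. H2-Q4, H2-T23 and the lipid-presenting Cd1d1 also rose with the block, and Mr1 fell. In replicate 1, H2-T22 was 813 untreated and 4637 treated at 12 h, and 852 and 6638 at 24 h. Of the list of other proteasome subunits, activators and assembly factors, 15 of 18 rose and 0 fell with the block, and 0 were called without it (10 at an unadjusted p under 0.05). They were Psma1, Psma2, Psma3, Psma4, Psma5, Psma6, Psma7, Psmb1, Psmb2, Psmb3, Psmb4, Psmb5, Psmb6, Psme2 and Pomp. Psme2, a subunit of the PA28 activator, went from 630 ± 30.8 to 1243 ± 266 (limma adjusted p 0.0630, 0.00145 with the block). In replicate 1, 18 of these 18 were positive at 1 h (median log2 ratio 0.92), 1 at 5 h (-0.92), 6 at 12 h (-0.05) and 17 at 24 h (0.45). None of the 5 genes for peptide loading chaperones and peptide trimming passed in either fit.

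Of 17 tested transcription factors of the pathway, Relb, Nfkb1 and Nfkb2 rose without the block, where 0.97% of all genes were called higher. Nfkb1, the p50 subunit precursor of NF-kB, was at 947 ± 123 and 3414 ± 989 (log2 fold change 1.82, limma adjusted p 0.0211), and Relb at 231 ± 27.3 and 1061 ± 457 (2.09, adjusted p 0.0491). Both were higher in replicate 1 at each time. With the block Rela also rose, and Irf1 and Rfx5 fell, where 17.9% of all genes were called higher and 19.3% lower. Irf1, an interferon-induced activator of class I genes, went from 203 to 2789 at 1 h in replicate 1. It was lower with AMG at 5 h, at 218 ± 49.2 and 146 ± 36.5 (block adjusted p 0.0184).

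The interferon receptor genes Ifngr2 and Ifnar2 and the signalling inhibitor Socs1 rose with the block among 8 tested genes of interferons and their receptors. Of all genes, 17.9% were called higher with the block. Ifnb1 and Ifng were at 0 in all 6 libraries of replicates 2 to 4. Of 20 tested interferon-stimulated genes, 10 rose with the block, against the same 17.9% of all genes. Without it 0 were called (limma, 9 at an unadjusted p under 0.05, against 23.1% of all genes). The 10 that rose were Isg15, Oasl2, Igtp, Gbp2, Gbp3, Gbp5, Cxcl10, Bst2, Xaf1 and Cd274. AMG-treated replicate 4 was the highest library for some of these genes, with Isg15 at 230 against 31.8 in AMG-treated replicate 2, and Ifit1 at 255 against 25.4. In the 12 h pair of replicate 1, all 22 had a positive log2 ratio, with a median of 3.21, and Stat2 went from 510 to 2012. At 1, 5 and 24 h, 19, 13 and 5 of the 22 were positive, with medians of 0.78, 0.19 and -0.41. The class I members, other than Nlrc5, had log2 ratios between -0.69 and 0.56 in the same 12 h libraries. In class II presentation, H2-DMa rose with the block among 3 tested genes, and the class II regulator Ciita was listed at 0 in replicates 2 to 4.

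Leukocyte markers were present at low levels. Their summed normalised count was 407 to 1555 in untreated and 708 to 1842 in treated libraries of replicates 2 to 4, and Ptprc, the pan-leukocyte marker CD45, was at 0 to 11.9. Lyz2 was 978 and 916 in replicate 4 and 76.6 to 158 in replicates 2 and 3. Of 6 tested leukocyte markers 3 were positive, with a median log2 fold change of 0.11, and Cd14 alone was called, at 133 ± 52.7 and 504 ± 175 (adjusted p 3.17e-05 with the block). Fibroblast markers summed to 447877 to 626065 in untreated and 350882 to 453651 in treated libraries. With the block 6 of 9 were lower, against 19.3% of all genes called lower and 17.9% called higher. Keratinocyte markers of skin summed to 25.1 to 72.5 and 31.2 to 57.3. In bulk RNA, fewer cells of a type and less RNA per cell cannot be told apart. The part of these markers in the class I results was not tested.

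Among themselves, 25 of 36 pairs of the 9 members with a mean of at least 10 in both tables had a positive Pearson r over the 14 libraries (log2 values centred within each table), with a median of 0.34. H2-K1 and Tapbp were the most alike (0.89), and H2-D1 and Tap1 the least (-0.65).

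Across the 14 libraries, on log2 values centred within each table, the profile of the 9 members with a mean of at least 10 in both tables was most like that of Gbp2 (Pearson r = 0.91), a GTPase induced by interferon. Tfec (0.91), Vcam1 (0.90), H2-Q4 (0.90) and THAP6 (0.89, spelled as in the tables) followed among 12835 candidate genes. These r describe libraries that share treatment, time and table, and carry no test. The profile was a plain mean of centred log2 values, so members with wide swings, such as Nlrc5, weighed most in it. In replicate 1 at 12 h, Gbp2 had a log2 ratio of 1.99 and Nlrc5 of 2.77. The other members of the profile were between -0.45 and 0.56, so the likeness does not hold for each member.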

How the data were processed

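Poly(A) RNA of 14 libraries was sequenced from stranded kits. Per the labels, reads were aligned to mm10 with TopHat2 2.0.13 and counted with HTSeq 0.5.3p3. The annotation release and the strand setting are not given in the sources used here. The values deposited by the authors are a normalised signal per gene (counts divided by a DESeq size factor). In all libraries 100% of the values were whole multiples of 1 read within a tolerance of 0.1, so reads were recovered.

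Replicates 2 to 4 at 5 h were compared with limma 3.58.1 (R 4.3.3, eBayes with trend) on log2(value + 1), for 13096 genes with a mean of at least 10. This scale understates the change of low genes. The fits were tried on simulated counts of libraries without shared replicate deviations, so that trial cannot decide for or against the replicate block. On the recovered reads edgeR 4.0.16 called 135 genes, and DESeq2 1.42.0 was a further alternative. Same-numbered libraries deviated together (r = 0.65, 0.76 and 0.70; other pairings -0.59 to 0.12), so a replicate block was also fitted. The labels do not say that replicates shared an animal or culture. Without the block, p-values measure the spread between these libraries within a group. With the block, they measure the spread of the differences between same-numbered libraries. Members and lists were chosen with earlier results of these data known. All members and pathway list genes past the threshold in either fit are named, with Psmb5, Psmb6 and Psmb7 and the 5 genes most alike. Ratios of replicate 1 carry exact binomial intervals of reads, which cover counting error only. Ifit1, Stat2, Ifnb1, Ifng, Ciita, Ptprc and Lyz2 were named after their values were seen. Sequences come from RefSeq.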

Additional observations from a re-analysis of the deposited data

Results flagged for a closer look

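In AMG-treated 5 h libraries, depth-scaled reads (RPM) of B2m stood apart in replicate 1, at 353 against 248 to 252 in the other 3. Tapbp RPM in AMG-treated 5 h replicate 3 were 73.7, against 147 to 160 in the others. Both gaps passed Dixon's 95% critical value for 4 samples, in a search of 26 groups, of which chance flags about 1 in 20. Each group joined replicate 1, which has its own table, with replicates 2 to 4. In Untreated 5 h libraries B2m RPM was also highest in replicate 1, at 480 against 180 to 248. The high B2m of replicate 1 was therefore not particular to the treated library. Tapbp RPM in Untreated 5 h libraries was also lowest in replicate 3, at 58.5 against 77.2 to 135. Neither of these untreated gaps passed the critical value.

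Tap2 was lower with AMG in replicate 1 at 1 h, 12 h and 24 h, with log2 ratios of -0.22, -0.45 and -0.26, whereas it was higher in 4 of 4 pairs at 5 h. The difference between times was not tested, since each other time has 1 pair.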

How the results depend on the processing

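Without the replicate block 0 members were called in limma on all 6 libraries and 0 in edgeR, also when edgeR took in replicate 1. With the replicate block 6 were called in limma, 6 with all genes above 0 kept (added after seeing the data), 6 in edgeR and 6 with a length correction. DESeq2, also without the block, called 2, and limma without it gave 0 to 3 when 1 library at a time was left out. Over all genes, limma called 162 without the block, 4872 with it and 4893 with it and all genes above 0. Limma called 80 without block or trend, and 4263 with the length correction and the block. EdgeR with the block called 4852, and DESeq2 without it 1434. Leaving out 1 library gave 1 to 2199, the highest without AMG-treated replicate 3. B2m turned to -0.115 with the length correction in both fits, and Tap1 ranged from -0.443 to 0.15 when 1 library was left out, positive without Untreated replicate 3 (0.15) or AMG-treated replicate 4 (0.0898). The ratio Psmb9 over Psmb6 turned to -0.243 with a pseudocount of 10, and leaving out 1 library gave -0.369 to 0.928. The median of replicate 1 at 5 h turned to -0.020 with upper quartile rescaling. The cause was not tested. Over all settings the adjusted p ranged from 1.39e-05 to 0.354 for H2-K1, 0.000144 to 0.487 for Psmb10 and 0.000162 to 0.554 for Psmb8. Of the other values, 101 summaries and 146 of single members kept their side of the threshold and direction, and 29 of single members passed it in their direction. Psmb9 was below the count minimum of the main test.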
